A study of Mus musculus with 4 samples.

Results

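The transcripts of the mouse MHC class I molecules were followed in cytokine-treated islets, together with *Nlrc5*. The 9 genes were chosen by symbol and are 9 of the 31053 genes in the count matrices. They comprise 7 heavy chain genes (*H2-K1*, *H2-D1*, *H2-Q4*, *H2-Q6*, *H2-Q7*, *H2-T22* and *H2-T23*), the light chain gene *B2m* and *Nlrc5*. All 9 were detected in β-cells of all 4 libraries.

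Islets of adult male C57BL/6 mice (C57BL6/J in the methods of the study) were pooled and divided before treatment, then left untreated or exposed for 6 h to IL-1B (IL-1β), IFNg (IFN-γ) or IL-1B and IFNg together. Each condition was 1 droplet library of unique molecular identifier (UMI) counts from the 3′ end of transcripts, so no test between conditions was possible and every interval below is a 95% counting interval. After cells outside 200 to 4000 detected genes or above 12% mitochondrial UMIs were dropped, 1521 untreated cells, 2018 cells under IL-1β, 2122 cells under IFN-γ and 1810 cells under both cytokines were kept. The median number of UMIs per kept cell was 15454 in the untreated library, 7462 under IL-1β, 9615 under IFN-γ and 11124 under both, so the untreated library was the deepest.

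Cells were typed by their hormone share or by marker genes. There were 1190 β-cells in the untreated library, 1158 under IL-1β, 1301 under IFN-γ and 1273 under both. α-cells numbered 89, 332, 299 and 168 in the same order, and δ-cells 66, 162, 184 and 116. The markers *Ucn3* in β-cells (105 CPM, UMIs per 1000000 UMIs of the class) and *Hhex* in δ-cells (186) were present in the classes named for them.

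MHC class I molecules carry peptides from proteins made inside the cell to its surface, where CD8+ T cells read them. A class I molecule is a heavy chain held by β2-microglobulin, the product of *B2m*. *H2-K1* and *H2-D1* encode the classical heavy chains, which present most peptides. The Q and T genes encode nonclassical heavy chains, among them Qa-2 from *H2-Q6* and *H2-Q7*, the γδ T cell ligand from *H2-T22*, and Qa-1 from *H2-T23*, which is read by NKG2A receptors of natural killer cells. NLRC5 is a nuclear protein that drives transcription of class I genes. IFN-γ acts through JAK kinases, and IL-1β acts largely through NF-κB. Class I molecules on β-cells are the targets of the CD8+ T cells that kill them in autoimmune diabetes.

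Of the 9 genes, 7 lie in the MHC on chromosome 17 (mm10 coordinates from GENCODE M21). *H2-K1* is at chr17:33996017-34000347 on the minus strand. *H2-D1* is at chr17:35262730-35267499, *H2-Q4* at chr17:35379617-35385290, *H2-Q6* at chr17:35424850-35430055 and *H2-Q7* at chr17:35439155-35443773, all on the plus strand. *H2-T23*, at chr17:36029773-36032855, and *H2-T22*, at chr17:36037128-36042747, are neighbors on the minus strand. *B2m* is at chr2:122147686-122153083 and *Nlrc5* at chr8:94434356-94527272, both on the plus strand. The heavy chain genes are close copies of each other, and no source used here says how reads shared between them were counted, so the split of UMIs between *H2-Q6* and *H2-Q7*, and between the other heavy chain genes, is uncertain.

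The promoters are shown because the genes differed in their response to each cytokine, and short elements of both pathways can be looked for in them. RefSeq promoters (GRCm38.p6, 250 bases before to 50 bases after the start) were found for 8 of the 9 genes. Both strands were searched for the κB motif GGGNNTTCC, for the interferon-stimulated response element core (GAAA, any 2 bases, then GAAA) and for a near form of that core, GAANTGAAA, which was added after the sequences had been read. No near form of the κB motif was searched, so the promoters without GGGNNTTCC, that of *B2m* among them, may hold other κB-like letters. Capitals mark these matches, and other bases are in lower case.
H2-K1: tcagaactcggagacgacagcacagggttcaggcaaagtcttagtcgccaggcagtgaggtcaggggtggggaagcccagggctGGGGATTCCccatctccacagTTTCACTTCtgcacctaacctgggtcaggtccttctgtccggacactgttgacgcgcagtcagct
H2-Q7: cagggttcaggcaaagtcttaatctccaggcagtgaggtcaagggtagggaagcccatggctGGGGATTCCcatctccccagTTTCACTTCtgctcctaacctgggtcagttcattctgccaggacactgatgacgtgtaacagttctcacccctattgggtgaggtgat
B2m: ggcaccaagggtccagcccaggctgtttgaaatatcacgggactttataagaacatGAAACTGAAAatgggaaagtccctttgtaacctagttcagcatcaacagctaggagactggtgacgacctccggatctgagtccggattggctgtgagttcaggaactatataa
H2-T22: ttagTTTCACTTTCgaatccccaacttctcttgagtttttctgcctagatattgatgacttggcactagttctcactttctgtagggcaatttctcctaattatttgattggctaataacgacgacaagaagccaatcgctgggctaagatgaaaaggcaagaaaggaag
H2-T23: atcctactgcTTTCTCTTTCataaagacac
The *H2-K1* stretch is chr17:34000373-34000542 on the minus strand, *H2-Q7* is chr17:35438960-35439129 on the plus strand, *B2m* is chr2:122147492-122147661 on the plus strand, and *H2-T22* is chr17:36042768-36042937 on the minus strand. For *H2-T23*, 30 bases around the match are shown, chr17:36032806-36032835 on the minus strand. The RefSeq start used for *H2-T23* lies inside the GENCODE M21 gene, and so does this stretch. The κB motif was found in 5 of the 8 promoters, those of *H2-K1*, *H2-D1*, *H2-Q4*, *H2-Q6* and *H2-Q7*, and in 5.82% of all 32851 promoters. The same 5 promoters held GAANTGAAA (1.83% of all promoters), in *H2-K1* at positions -90 to -82 beside a κB match at -111 to -103. The response element core was found in the other 3, those of *B2m*, *H2-T22* and *H2-T23* (3.44% of all promoters), and none of these 3 held GGGNNTTCC. No match of 1 of these motifs overlapped a match of another in these promoters. CCAAT, the Y box core of class I promoters, was in all 8 and in 37.4% of all promoters, TGACGC, the X2 box core, in 3 of 8 and 7.40% of all, and TTCNNNGAA, the gamma-activated site, in 0 of 8 and 8.30% of all. The TGACGC matches lay before the start in *H2-K1* (-41 to -36) and *H2-D1* (-101 to -96). In *H2-Q4* the match lay after the start (31 to 36), on the opposite strand. A match describes these letters only, and no binding was measured.

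In β-cells, the summed level of the 8 class I genes (7 heavy chain genes and *B2m*) was higher in each treated library than in the untreated one. It was 1226 CPM in untreated cells, 2371 under IL-1β, 2070 under IFN-γ and 3057 under both. The fold over untreated was 1.93 (1.90 to 1.97) under IL-1β, 1.69 (1.66 to 1.72) under IFN-γ and 2.49 (2.46 to 2.53) under both. These levels are shares of all UMIs, and hormone transcripts took a different share in each library. Insulin and the other hormone genes made up 47.6% of β-cell UMIs without treatment, 28.5% under IL-1β, 34.4% under IFN-γ and 38.1% under both. The median gene was 1.27-fold higher under IL-1β (0.34 on the log2 scale), 1.23-fold higher under IFN-γ (0.30 on the log2 scale) and at 0.999-fold under both. Relative to the median gene, the class I sum was 1.53-fold higher under IL-1β, 1.37-fold under IFN-γ and 2.495-fold under both. With hormone genes left out of the totals, the folds were 1.42, 1.35 and 2.11.

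All 9 genes passed the filter of 20 UMIs over the pair of libraries in β-cells. *Nlrc5*, with 4 untreated UMIs, passed through its UMIs in the treated libraries. With IL-1β, 5 of 9 were at least 2-fold higher than in untreated β-cells, as were 17.1% of all 12113 genes compared. With IFN-γ it was also 5 of 9, against 6.25% of 12256 genes, and under both cytokines 8 of 9, against 11.8% of 12271 genes. None was 2-fold lower, against 6.70%, 0.865% and 12.8% of all genes. With hormone genes left out of the totals, the counts were 3, 2 and 7, against 7.90%, 3.53% and 9.15% of all genes on that scale. The 3 genes past 2-fold under IL-1β on that scale were *H2-Q6*, *H2-Q7* and *Nlrc5*, and the 2 under IFN-γ were *H2-T23* and *Nlrc5*.

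**Figure D1:**
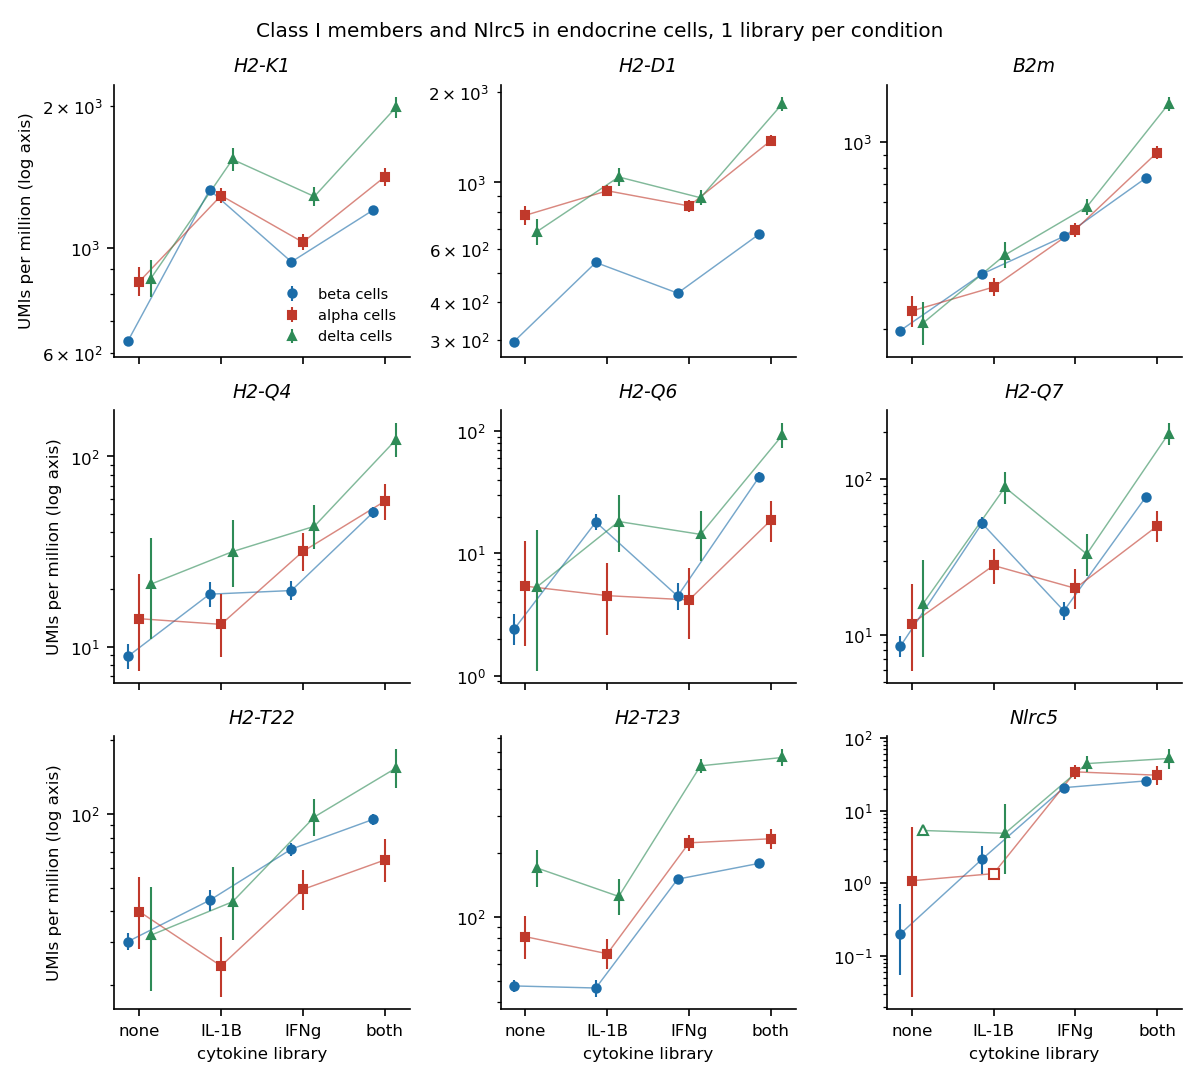
Level of each gene in β-cells (circles), α-cells (squares) and δ-cells (triangles) in the untreated library (none), under IL-1β, under IFN-γ and under both, in CPM on a log axis. Bars are 95% Poisson intervals, and open symbols mark libraries with 0 UMIs, drawn at 3 UMIs; *H2-Q7* peaks under IL-1β among the single cytokines, from 8.49 to 52.15 in β-cells, while *H2-T23* is at 47.5 and 46.4 without treatment and under IL-1β and at 151 under IFN-γ.

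The 2 classical heavy chain genes were higher with either cytokine, more so under IL-1β. *H2-K1* in β-cells was at 634 CPM without treatment, 1327 under IL-1β, 934 under IFN-γ and 1203 under both. The highest *H2-K1* level was thus in the IL-1β library, and the level under both was 0.906 times that under IL-1β (0.886 to 0.927). On the scale of the median gene, the order of these 2 libraries was turned, at 1.65-fold under IL-1β and 1.90-fold under both, as it was with hormone genes left out of the totals (1.53 and 1.605). *H2-D1* was at 296 CPM without treatment, 542 under IL-1β, 429 under IFN-γ and 675 under both. For *H2-D1* the folds were 1.83 (1.76 to 1.90), 1.45 (1.396 to 1.5) and 2.28 (2.21 to 2.35), and 1.44, 1.17 and 2.28 relative to the median gene. With IFN-γ alone, both genes were thus close to the median gene, at 1.19-fold and 1.17-fold of it.

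*H2-Q6* and *H2-Q7*, which encode Qa-2, stood apart by their level under IL-1β. *H2-Q6* in β-cells was at 2.40 CPM (48 UMIs) without treatment, 18.1 under IL-1β, 4.48 under IFN-γ and 42.6 under both. *H2-Q7* was at 8.49 without treatment, 52.15 under IL-1β, 14.3 under IFN-γ and 76.7 under both. Both genes were thus high in the 2 libraries that received IL-1β and low in the other 2. The fold under IL-1β was 7.54 (5.45 to 10.6) for *H2-Q6* and 6.15 (5.16 to 7.35) for *H2-Q7*. With IFN-γ it was 1.87 (1.265 to 2.78) and 1.69 (1.37 to 2.08), and under both 17.8 (13.2 to 24.3) and 9.04 (7.69 to 10.7). Comparing the single cytokines directly, the IFN-γ library was at 0.248 times the IL-1β library for *H2-Q6* (0.183 to 0.332) and at 0.275 times for *H2-Q7* (0.233 to 0.324). Both promoters held a κB match, shown above for *H2-Q7*, as did those of *H2-K1*, *H2-D1* and *H2-Q4*, whose responses to IL-1β were smaller.

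*H2-Q4*, another Q region gene, was close to even between the cytokines. In β-cells it was at 8.89 CPM without treatment, 18.9 under IL-1β, 19.7 under IFN-γ and 50.9 under both. The ratio of the IFN-γ to the IL-1β library was 1.045 (0.865 to 1.265), an interval that holds 1. With both cytokines *H2-Q4* was 5.73-fold higher than untreated (4.86 to 6.78).

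The T region genes and *B2m* were higher under IFN-γ than under IL-1β. *H2-T23* in β-cells was at 47.5 CPM without treatment, 46.4 under IL-1β, 151 under IFN-γ and 179 under both. It was the only one of the 9 genes that was not higher under IL-1β, at 0.978-fold (0.873 to 1.10), which is 0.772 times the fold of the median gene. With IFN-γ, *H2-T23* was 3.18-fold higher (2.95 to 3.44), and adding IL-1β to IFN-γ gave a further 1.19-fold (1.122 to 1.256).

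*H2-T22*, the neighbor of *H2-T23*, was at 30.1 CPM without treatment, 44.4 under IL-1β, 71.85 under IFN-γ and 95.05 under both. Its fold under IL-1β was 1.47 (1.301 to 1.67), or 1.16 relative to the median gene, and under IFN-γ 2.39 (2.16 to 2.64). *B2m* was at 198 without treatment, 322 under IL-1β, 445 under IFN-γ and 735 under both. The *B2m* folds were 1.63 (1.55 to 1.71), 2.25 (2.16 to 2.34) and 3.72 (3.58 to 3.85). For these 3 genes the IFN-γ library exceeded the IL-1β library, by 3.25-fold (2.94 to 3.61) for *H2-T23*, 1.62-fold (1.445 to 1.815) for *H2-T22* and 1.38-fold (1.32 to 1.44) for *B2m*.

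**Figure D2:**
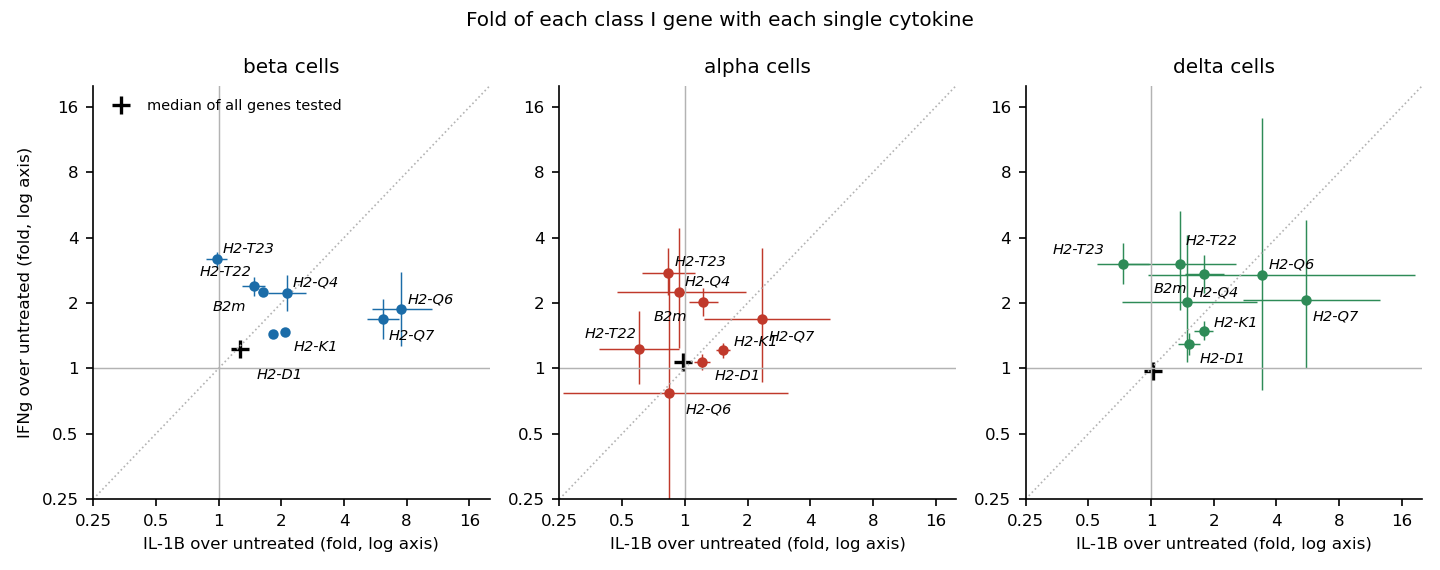
Fold over untreated under IL-1β (horizontal) against fold under IFN-γ (vertical) for the 8 class I genes in β-cells, α-cells and δ-cells, on log axes with 95% intervals; the cross is the median of all genes compared and the dotted line marks equal folds. In β-cells *H2-Q6* and *H2-Q7* lie far below the line, at 7.54 and 6.15 under IL-1β, and *H2-T23* lies farthest above it, at 0.978 under IL-1β and 3.18 under IFN-γ.

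*Nlrc5*, the class I transactivator, was nearly undetected in untreated β-cells and far higher in the libraries that received IFN-γ. There were 4 UMIs in untreated β-cells (0.1997 CPM), 21 under IL-1β (2.14 CPM), 296 under IFN-γ (20.7 CPM) and 400 under both (25.6 CPM). The libraries that received IFN-γ were thus far above the other 2. The fold was 104 under IFN-γ (40.1 to 383) and 128 under both (49.75 to 473.5), wide intervals set by the 4 untreated UMIs. With IL-1β the fold was 10.7 (3.62 to 43.0). With no upper limit on genes per cell the folds were 5.15 under IL-1β, 48.3 under IFN-γ and 60.7 under both, and after thinning 6.355, 48.25 and 69.7, all inside these intervals. IFN-γ exceeded IL-1β by 9.66-fold (6.205 to 15.8). A *Nlrc5* UMI was found in 0.336% of untreated β-cells, 1.81% under IL-1β, 20.4% under IFN-γ and 25.6% under both. After each cell was thinned to 4000 UMIs, the shares were 0.174%, 1.11%, 8.17% and 11.4%, in the same order. The class I sum was nonetheless higher in the IL-1β library than in the IFN-γ library, by the values above.

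The effects of both cytokines together were set against the product of the single folds. For the median gene in β-cells, the fold under both was 0.624 times that product, so values are given relative to it. The class I sum was at 1.22 on this scale. *H2-Q6* was at 2.02, *H2-Q4* at 1.95, *H2-T23* at 1.945 and *B2m* at 1.63, all above the median gene. *H2-K1* was at 0.986, close to the median gene. *Nlrc5* was below the median gene at 0.185, with the fold under both 0.115 times the product (0.0392 to 0.340). Its single folds rest on 4 untreated UMIs. Between treated libraries, its level under both was 1.24 times that under IFN-γ (1.06 to 1.44).

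Ratios between class I genes within a library do not depend on the total or on the hormone share. In β-cells the UMIs of the 7 heavy chain genes were 5.20 times those of *B2m* without treatment (5.02 to 5.38), 6.37 times under IL-1β (6.13 to 6.61), 3.65 times under IFN-γ (3.55 to 3.75) and 3.16 times under both (3.09 to 3.23). The ratio was thus above untreated under IL-1β and below it in the libraries that received IFN-γ, and no 2 of these intervals overlapped. In α-cells the ratio was 7.59, 8.23, 4.65 and 3.51, and in δ-cells 8.49, 7.62, 5.02 and 3.55. The lower ratio under IFN-γ was found in all 3 endocrine types. In macrophages the order was different, at 1.31 without treatment, 1.35 under IL-1β, 1.54 under IFN-γ and 1.76 under both.

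The ratio of *H2-Q6* and *H2-Q7* to *H2-T22* and *H2-T23*, a pairing chosen after their values were seen, condensed the contrast between the cytokines. In β-cells it was 0.1403 without treatment (0.121 to 0.162), 0.773 under IL-1β (0.699 to 0.855), 0.0844 under IFN-γ (0.0743 to 0.09565) and 0.435 under both (0.412 to 0.459). In δ-cells it was 0.105, 0.633, 0.0775 and 0.402, and in α-cells 0.143, 0.356, 0.0886 and 0.230. The same order of the 4 libraries held in each of these types, although in α-cells and δ-cells the untreated and IFN-γ intervals overlapped, as did in α-cells the interval under both with those of the untreated and IL-1β libraries. The *H2-K1* to *H2-D1* ratio in β-cells was 2.14 without treatment, 2.45 under IL-1β, 2.18 under IFN-γ and 1.78 under both. It was lower in the other endocrine types, at 1.09 in untreated α-cells (0.984 to 1.21) and 1.253 in untreated δ-cells (1.09 to 1.44).

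**Figure D3:**
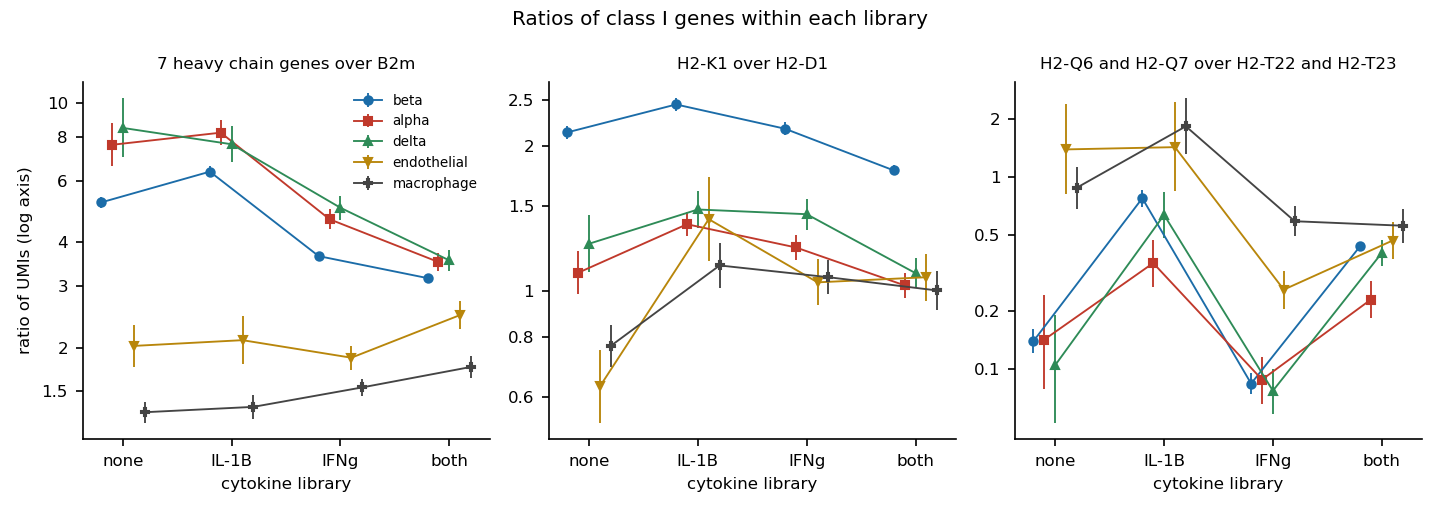
Ratios of UMIs between class I genes within each library, on log axes with 95% intervals, in β-cells, α-cells, δ-cells, endothelial cells and macrophages. The ratio of heavy chains to *B2m* (left) was lower in the libraries under IFN-γ in the endocrine types, from 5.20 to 3.16 in β-cells; *H2-K1* over *H2-D1* (middle) was higher in β-cells than in the other types; the Qa-2 genes over the T region genes (right) were highest under IL-1β in all 3 endocrine types.

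α-cells, which secrete glucagon, had smaller class I folds under single cytokines than β-cells and δ-cells. Their class I sum was 2013 CPM without treatment, 2655 under IL-1β, 2664 under IFN-γ and 4135 under both. The folds were 1.32 (1.252 to 1.39), 1.32 (1.26 to 1.39) and 2.05 (1.95 to 2.16). On this scale the 2 single-cytokine libraries did not differ beyond counting error, with a ratio of 1.004 (0.969 to 1.04). Relative to the median gene the folds were 1.35 under IL-1β and 1.24 under IFN-γ, and with median-of-ratios scaling 1.38 and 1.24, so their order depended on the scaling. Of the 9 genes, 7 passed the UMI filter under IL-1β and 1 was at least 2-fold higher, *H2-Q7*, against 9.09% of all genes compared. With IFN-γ, 8 passed and 4 were at least 2-fold higher, against 6.54%, and under both, 6 of 9 were, against 9.70%. *Nlrc5* (1 untreated UMI) passed only in these last 2 pairs and *H2-Q6* (5) only under both, through their treated UMIs. The 3 counts are therefore not over the same genes. *H2-Q4* (13 untreated UMIs) and *H2-Q7* (11) passed in each pair, but also only with their treated UMIs. The count under IL-1β was 2 after thinning (12.3% of all genes).

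In α-cells *H2-T23* was at 80.9 CPM without treatment, 67.3 under IL-1β, 224 under IFN-γ and 234 under both. Its pattern was that of β-cells, with no higher level under IL-1β. *H2-T22* in α-cells was at 39.9, 23.9, 49.2 and 64.8, and its fold under IL-1β was 0.5995 (0.387 to 0.9385), below 1 under each scaling tried. *H2-Q6* had 5 UMIs in untreated α-cells and 10 under IL-1β, too few to pass the filter, while its near copy *H2-Q7* was 2.36-fold higher (1.23 to 4.97). *Nlrc5* was found as 1 UMI in untreated α-cells, 0 under IL-1β, 82 under IFN-γ and 46 under both. The *Nlrc5* fold over that 1 UMI was 31.7 under IFN-γ (5.53 to 1266).

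δ-cells, which secrete somatostatin, had the highest class I level of the β, α and δ types under both cytokines. Their class I sum was 2004 CPM without treatment, 3270 under IL-1β, 3451 under IFN-γ and 6335 under both. The folds were 1.63 (1.52 to 1.75), 1.72 (1.61 to 1.84) and 3.16 (2.96 to 3.38). The fold under both in δ-cells lay above the β-cell interval of 2.46 to 2.53 and the α-cell interval of 1.95 to 2.16. With IL-1β, 1 of the 7 genes that passed the filter was at least 2-fold higher, *H2-Q7*, against 10.0% of all genes compared. With IFN-γ it was 7 of 9, against 5.0%, and under both 9 of 9, against 12.6%. *H2-Q6* (3 untreated UMIs) and *Nlrc5* (0) passed the filter only in these last 2 pairs, through their treated UMIs. The counts are therefore not over the same genes as that under IL-1β. *H2-Q4* (12 untreated UMIs), *H2-Q7* (9) and *H2-T22* (18) passed in each pair, but also only with their treated UMIs. Among them is *H2-Q7*, the gene counted under IL-1β. The *H2-Q6* fold under IFN-γ, 2.69, had an interval that held 1 (0.791 to 14.2). Over the alternatives run, the count under IFN-γ was 5 to 7, but the share of all genes was not set beside each of these counts. The count under IL-1β was 2 with no upper gene limit (8.07% of all genes), after thinning (12.8%), or with a stricter hormone share (10.9%).

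*B2m* in δ-cells was at 211 CPM without treatment, 379 under IL-1β, 573 under IFN-γ and 1392 under both, a fold of 6.59 under both (5.45 to 8.04). *H2-Q7* was at 15.97, 88.75, 33.15 and 196, and its IL-1β fold of 5.56 (2.77 to 12.6) overlapped that in β-cells. *H2-T23* was at 170, 125, 515 and 564, and IL-1β alone was at 0.735-fold (0.551 to 0.981). *H2-T23* was thus not higher under IL-1β in β-cells, α-cells or δ-cells. *Nlrc5* had 0 UMIs in untreated δ-cells, 4 under IL-1β, 59 under IFN-γ and 40 under both. Against a floor of 3 UMIs in the untreated library, *Nlrc5* was at least 8.35-fold higher under IFN-γ and at least 9.81-fold higher under both.

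**Figure D4:**
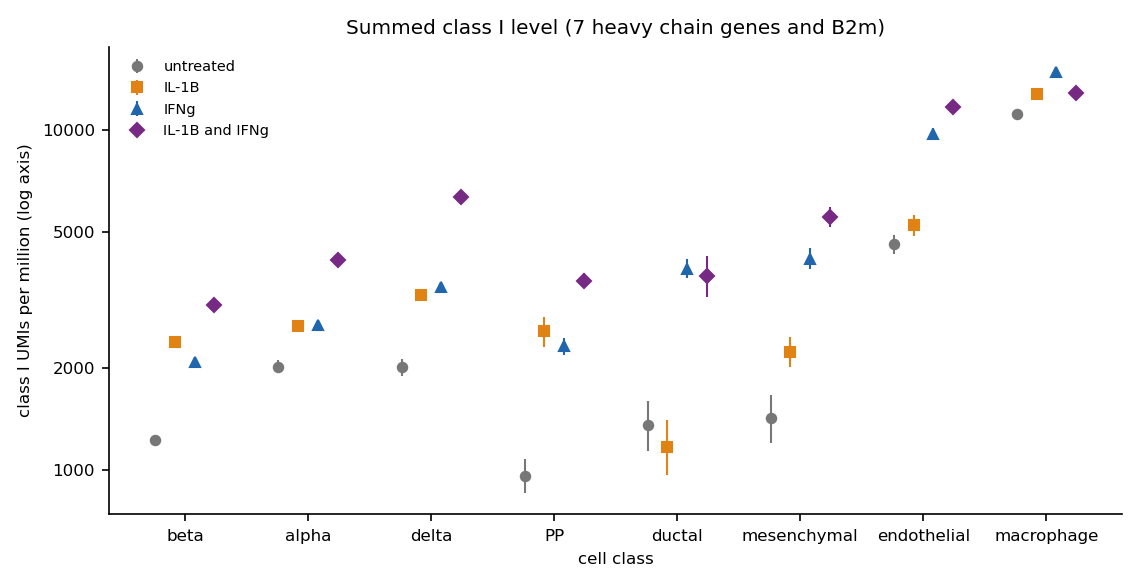
Summed level of the 7 heavy chain genes and *B2m* by cell type in the 4 libraries, in CPM on a log axis with 95% Poisson intervals; acinar cells are not drawn. Macrophages stay between 11145 and 14772, the other types drawn are lower within each library, and δ-cells reach 6335 under both cytokines.

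Cell types were ordered by their class I sum without treatment. Acinar cells (6 to 17 per library) were lowest at 512 CPM (381 to 673), from 51 UMIs. Pancreatic polypeptide (PP) cells were at 961 CPM (856 to 1076), β-cells at 1226 (1211 to 1241), ductal cells at 1351 (1134 to 1597), mesenchymal cells at 1418 (1199 to 1665), δ-cells at 2004, α-cells at 2013, endothelial cells at 4613 and macrophages at 11145. β, ductal and mesenchymal cells did not differ beyond their intervals, nor did δ-cells and α-cells. This order depends on the hormone share. Per 1000000 UMIs other than hormones, β-cells were at 2339, PP cells at 1851, δ-cells at 2567 and α-cells at 2653, beside acinar cells at 514, ductal cells at 1359 and mesenchymal cells at 1426. The intervals of PP cells (1648 to 2072) and mesenchymal cells (1206 to 1675) overlapped on this scale. Endothelial cells (4645) and macrophages (11211) were highest on both scales.

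The non-β types with few cells differed in which cytokine moved with class I. In endothelial cells (22 to 45 per library) the class I sum was 5237 CPM under IL-1β, 9731 under IFN-γ and 11716 under both. The fold was 1.14 under IL-1β (1.03 to 1.252) and 2.11 under IFN-γ (1.959 to 2.27). *H2-T23* in endothelial cells was at 92.7 without treatment, 132 under IL-1β, 1002 under IFN-γ and 919 under both. Ductal cells (6 to 24 per library) were at 1169 under IL-1β, 3903 under IFN-γ and 3716 under both, and their IL-1β fold of 0.866 (0.669 to 1.12) held 1. In PP cells (21 to 50 per library) either cytokine was followed by a higher level, 2555 under IL-1β and 2308 under IFN-γ, with 3598 for both. Mesenchymal cells (13 to 26 per library) were at 2224, 4184 and 5547. Acinar cells were at 942, 1311 and 2477, a fold under both of 4.84 (3.43 to 6.90).

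Macrophages, which present antigen as part of their role, differed least between libraries. Their class I sum was 12727 CPM under IL-1β, 14772 under IFN-γ and 12861 under both, folds of 1.14 (1.085 to 1.20), 1.33 (1.27 to 1.39) and 1.15 (1.10 to 1.21). *H2-T23* in macrophages was nonetheless at 324 without treatment, 196 under IL-1β, 783 under IFN-γ and 801 under both. *Nlrc5* was found there as 1, 1, 34 and 11 UMIs. The order of the libraries for *H2-T23* was therefore like that of β-cells, α-cells and δ-cells, on a class I sum that varied little.

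RNA from broken cells can enter other droplets, and 2 gauges of it were read. Both were limited by the typing, which kept α-cells under 2% insulin UMIs and endocrine cells with fewer than 4 of the macrophage markers. Insulin UMIs made up 0.542% of untreated α-cell UMIs against 42.1% in β-cells, and 0.116%, 0.215% and 0.135% of α-cell UMIs in the libraries under IL-1β, IFN-γ and both. The 10 macrophage markers were at 72.2 CPM in untreated β-cells, 39.6 under IL-1β, 42.6 under IFN-γ and 140.5 under both. *C1qa* alone gave 1386, 349, 571 and 2120 UMIs in these libraries, most of the marker UMIs in each, while *Lyz2*, the marker at 3238 to 4974 CPM in macrophages, was at most at 0.599. The marker level in β-cells was at most 0.411% of that in macrophages, and the same share of the macrophage class I level would be 52.9 of the 3057 class I CPM in β-cells under both cytokines. That value rests mostly on *C1qa*, so it does not size the RNA carried over from macrophages. The part of RNA from broken cells in the class I values was not tested.

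The spread over single cells was read after thinning each cell to 4000 UMIs, which left 1147, 1083, 1248 and 1242 β-cells. The median β-cell held 4 class I UMIs without treatment, 9 under IL-1β, 8 under IFN-γ and 12 under both. The quartiles were 2 and 7, 6 and 12, 5 and 11, and 8 and 16. The ranges between quartiles thus overlapped widely among the treated libraries. The untreated range reached only the low end of those under single cytokines and not that under both. With both cytokines, 46.0% of β-cells (43.2 to 48.8) held more than 12 UMIs, the untreated 95th percentile, against 24.01% under IL-1β and 17.4% under IFN-γ. At the other end, 5.23% of β-cells under both cytokines, 11.4% under IL-1β and 21.9% under IFN-γ held no more than the untreated median.

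In δ-cells the median was 8 class I UMIs without treatment, 12 under IL-1β, 13 under IFN-γ and 26 under both, and 84.2% of the 101 δ-cells under both (75.55 to 90.7) exceeded the untreated 95th percentile. In α-cells the medians were 7, 10.5, 10 and 14, and 30.5% exceeded it under both (23.55 to 38.15). Most δ-cells under both cytokines thus lay above that percentile, while most α-cells and β-cells did not.

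**Figure D5:**
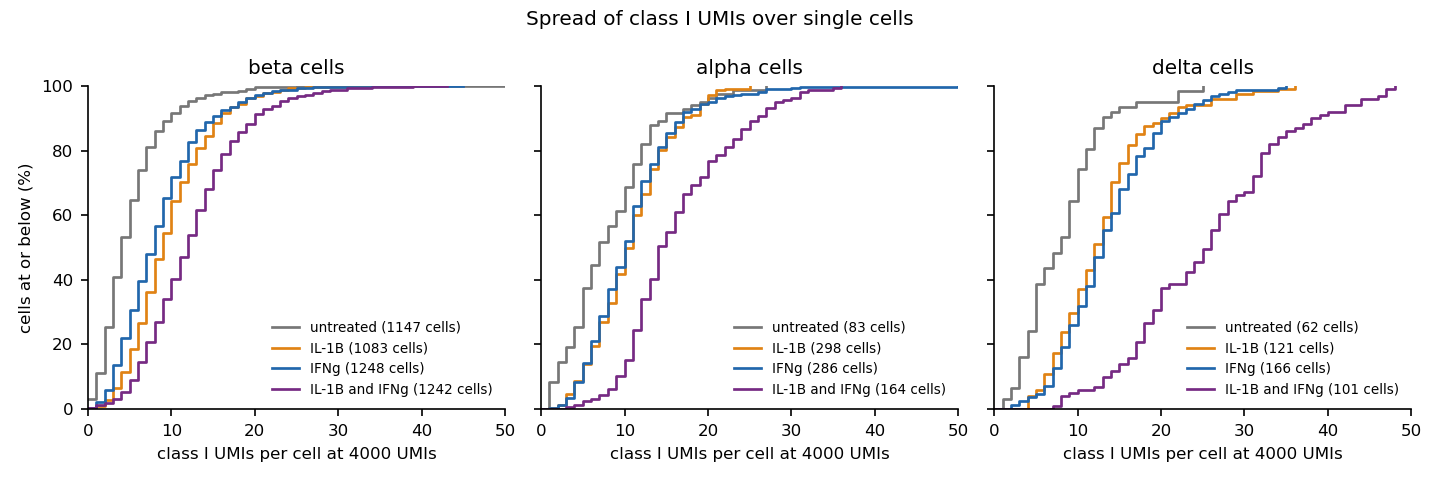
Percent of β-cells, α-cells and δ-cells at or below each number of class I UMIs (horizontal axis, to 50), after thinning to 4000 UMIs per cell, in the 4 libraries. The curves of single cytokines lie close together between untreated and both, and the δ-cell curve under both cytokines lies farthest to the right, with a median of 26.

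Class I levels were also set beside the *Nos2* and *Nlrc5* status of the same cells. *Nos2* encodes inducible nitric oxide synthase. With both cytokines, β-cells with a *Nos2* UMI held a mean of 13.5 class I UMIs (13.2 to 13.7, 894 cells) and those without one 9.90 (9.57 to 10.2, 348 cells). δ-cells with *Nos2* held 29.0 (67 cells) and those without 18.8 (34 cells). Under IL-1β alone the β-cell means were 9.95 (9.61 to 10.3, 329 cells) and 9.54 (9.325 to 9.77, 754 cells), with overlapping intervals. In α-cells under both no such difference was found, at 15.8 (14.8 to 16.9, 55 cells) with *Nos2* and 16.4 (15.7 to 17.2, 109 cells) without. Cells with a *Nos2* UMI were deeper before thinning, with a median of 12819 against 10835 UMIs in β-cells, and the part of depth in these values was not tested. β-cells with and without a *Nlrc5* UMI held 13.35 (12.95 to 13.75) and 12.2 (11.95 to 12.4) under both cytokines. Under IFN-γ they held 8.91 (8.55 to 9.28) and 8.44 (8.26 to 8.62), and under IL-1β 8.80 (7.55 to 10.2, 20 cells) and 9.68 (9.50 to 9.87), with overlapping intervals in each. Cells of 1 library are not replicates, and these intervals cover counting error only.

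Further groups of genes place these values in the class I pathway. Their counts are given on the scale of all UMIs only. On that scale more of the 9 chosen genes passed 2-fold in β-cells than with hormone genes left out. One group holds 13 genes that cut, carry and load peptides. In β-cells 8 of 13 were at least 2-fold higher under IL-1β (17.1% of all genes), 10 under IFN-γ (6.25%) and 10 under both (11.8%), and the median folds of the list were 2.55, 2.96 and 4.725, beside 1.27, 1.23 and 0.999 for all genes. *Tap1*, which pumps peptides into the endoplasmic reticulum, was at 4.79 CPM without treatment, 15.5 under IL-1β, 162 under IFN-γ and 220 under both. The chaperones *Calr*, *Canx* and *Pdia3*, also used by other proteins, were at most 1.57-fold higher (*Canx* under IL-1β). In α-cells 0 of 13 were at least 2-fold higher under IL-1β (9.09% of all genes), 10 under IFN-γ (6.54%) and 9 under both (9.70%). In δ-cells it was 5 (10.0% of all genes), 9 (5.0%) and 9 (12.6%).

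The second group holds 17 genes of the route from the IFN-γ receptor and NF-κB to class I promoters, of which 11 of the 15 that passed the filter were at least 2-fold higher in β-cells under IL-1β (17.1% of all genes, with the median gene at 1.27-fold), 8 of 17 under IFN-γ (6.25%) and 13 of 17 under both (11.8%). In α-cells the counts were 4 of 14, 7 of 16 and 9 of 15, beside 9.09%, 6.54% and 9.70% of all genes, and in δ-cells 5 of 14, 6 of 15 and 12 of 15, beside 10.0%, 5.0% and 12.6%. *Irf8* and *Ciita*, with 0 untreated UMIs in each type, passed only in libraries that received IFN-γ. In δ-cells *Relb*, also with 0, passed only in those that received IL-1β. The counts of the libraries are therefore not over the same genes. The genes at least 2-fold lower were receptor chains, *Ifngr1* under both in α-cells (0.381-fold, 0.137 to 0.992) and in δ-cells (0.368-fold, 0.136 to 0.911) and *Ifngr2* under IFN-γ in δ-cells (0.4245-fold, 0.167 to 1.08), each 1 gene of the list beside 12.8%, 15.9% and 3.68% of all genes. Over the 3 groups together, the largest β-cell folds under IL-1β were those of *Ifngr2* (10.8), a chain of the IFN-γ receptor, and of the NF-κB genes *Relb* (6.76) and *Nfkb1* (4.70). With IFN-γ they were those of *Irf8*, at least 100-fold, *Ciita*, at least 52.3-fold, and *Tap1*, 33.7-fold, where *Irf8* and *Ciita* had 0 untreated UMIs and the floor of 3 UMIs was used. With both cytokines the same 3 genes led, *Irf8* at least 190-fold, *Tap1* 45.8-fold and *Ciita* at least 23.1-fold. In β-cells *Ifngr2*, *Relb* and *Nfkb1* were thus higher under IL-1β than under IFN-γ, and *Irf8*, *Ciita* and *Tap1* higher under IFN-γ. *Tap1* was also 3.24-fold higher under IL-1β than untreated (2.49 to 4.22). These genes were named by their folds, and a link to the class I genes was not tested. The smallest folds were those of *Rfxank* (0.668), *Mr1* (0.704) and *H2-Q2* (1.09) under IL-1β, *Relb* (0.531), *Rfxank* (0.860) and *Ifngr2* (0.969) under IFN-γ, and *Mr1* (0.568), *Rfxank* (0.75) and *H2-Q2* (0.858) under both. *Rfxank* encodes a subunit of the RFX factor that binds class I and class II promoters.

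The last group holds other class I and class I-like genes, of which 5 of the 10 found in the matrices passed the filter. In β-cells 1 of 5 was at least 2-fold higher under IL-1β, 0 under IFN-γ and 1 under both, beside the 17.1%, 6.25% and 11.8% of all genes. The gene was *H2-Q10* in each case, at 3.46-fold under IL-1β (1.67 to 7.475) and 4.74-fold under both (2.53 to 9.54). It had few UMIs, 13 without treatment, 22 under IL-1β and 48 under both, and passed the filter only with its treated UMIs. In β-cells *H2-Q2* was at 61.0 CPM without treatment, 66.7 under IL-1β, 85.4 under IFN-γ and 52.3 under both, and *H2-M3* was at 16.5, 22.04, 30.7 and 22.9. Both stayed under 2-fold in β-cells. In α-cells under IL-1β, 1 of 4 was at least 2-fold higher (9.09% of all genes), *Hfe* at 2.88-fold (1.425 to 6.60). Under both, 0 of 3 in α-cells (9.70%) and 0 of 2 in δ-cells (12.6%) were, and 0 of 2 in δ-cells under IL-1β (10.0%). Under IFN-γ, 2 of the 4 genes that passed in α-cells were at least 2-fold higher (6.54% of all genes) and 2 of 3 in δ-cells (5.0%), where *Hfe* was 2.23-fold higher in α-cells (1.09 to 5.15), *H2-M3* 2.24-fold in α-cells (1.40 to 3.75) and 2.335-fold in δ-cells (1.40 to 4.10), and *H2-Q2* 2.18-fold in δ-cells (1.396 to 3.52).

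The genes most like the class I sum and *Nlrc5* were sought over 24 points, the 4 libraries of 6 cell types with at least 20 cells in each. Among 8873 genes, *Capzb*, *Tgm2*, *Zfp36*, *Rab5c* and *Ifnar2* were most like the class I sum (Pearson r of 0.921 to 0.939), and *Tap1*, *Irgm1*, *Igtp*, *Zbp1* and *Psmb10* were most like *Nlrc5* (0.921 to 0.944). The points share libraries and cell types, so these values are descriptions.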

How the data were processed

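Per the labels, single cells of C57BL/6 mouse islets were measured in 4 libraries, 1 per condition. The authors made raw UMI counts with Cell Ranger on mm10, per the submitters' processing notes, and these counts were used as deposited, whole and not normalized; the matrix headers give software version 3.0.0. The reagent kit is version 2 in the labels and another version in the methods of the study. No source used here says how reads shared by near-identical genes were counted.

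Python 3.11.15, numpy 2.4.6, scipy 1.17.1, pandas 2.3.3 and scanpy 1.11.5 were used. Kept cells had 200 to 4000 genes and at most 12% mitochondrial UMIs. A β-cell had at least 4% insulin UMIs, an α-cell 3% *Gcg*, a δ-cell 1.5% *Sst* and a PP cell 10% *Ppy*, without other hormones above small limits, and other types at least 4 marker genes (ductal, 5). Endocrine cells also had fewer than 4 markers of each of the macrophage, endothelial and mesenchymal types. Between 8 and 22 β-cells per library lay just above the insulin limit. Any pair of libraries shared 1 to 4 cell barcodes. Doublets were treated only by the upper gene limit.

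UMIs were summed per library and type and divided by the total. Intervals are exact (Poisson, conditional binomial or Clopper-Pearson) at 95% and cover counting error only. A gene was compared with at least 20 UMIs in the pair of libraries and called at 2-fold. With 1 library per condition no test was made, and spread between animals is unknown. The fold and interval code was tested on simulated data. Thinning used seed 1.

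The members and gene lists were chosen with earlier results of these data known. All 9 members are named; of the other lists, every call is counted and the 3 largest and 3 smallest β-cell folds over the lists together are named, with *Calr*, *Canx*, *Pdia3*, *H2-Q10*, *H2-M3*, *Ifngr1* and *Hfe* added after their values were seen. *H2-T10* and *H2-Bl* were not matched by symbol. Of 31053 gene identifiers, 30934 matched GENCODE M21. Of the 2 *H2-K1* starts in the RefSeq table, the first was used. Alternatives were other cell limits, thinning, scaling, averaging over cells, stricter typing, removal of doublets and a 1.5-fold call.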

Additional observations from a re-analysis of the deposited data

How the results depend on the processing

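With hormone genes left out of the totals, the class I fold was 1.418 under IL-1β, 1.348 under IFN-γ and 2.111 under both, and with median-of-ratios scaling it was 1.536 under IL-1β and 1.356 under IFN-γ. With no upper gene limit it was 1.894, 1.657 and 2.427. After thinning it was 1.899 under IL-1β and 2.452 under both, as a mean over cells 1.852 and 2.417, and with a mitochondrial limit of 20% 1.897 under IL-1β. The β-cell genes at least 2-fold higher numbered 3 under IL-1β without hormone genes, with median-of-ratios scaling and as a mean over cells (7.90%, 9.32% and 14.8% of all genes), and 2 under IFN-γ under the first 2 of these (3.53% and 3.57%). After thinning, the β-cell count under IFN-γ was instead higher, at 7, with *H2-Q6* at 2.48-fold and *H2-Q7* at 2.24-fold. The share of all genes past 2-fold was not counted after thinning in this pair, so the higher count cannot be read against it. The median gene there was at 1.241-fold, against 1.234-fold without thinning. In α-cells under IL-1β the count was 2 after thinning (12.3% of all genes) and 2 at a 1.5-fold call (18.5%). In δ-cells under IL-1β it was 2 with no upper gene limit (8.07%), after thinning (12.8%) or with a stricter hormone share (10.9%), and 4 at a 1.5-fold call (20.6%). The *Nlrc5* fold in β-cells was lower by over 1.5 times with no upper gene limit (5.154 under IL-1β, 48.27 under IFN-γ, 60.7 under both) and after thinning (6.355, 48.25 and 69.73), inside its counting interval. None of the alternatives run turned the β-cell class I or *Nlrc5* fold over untreated below 1, but the order of *H2-K1* between the IL-1β library and that given both cytokines turned with hormone genes left out, with median-of-ratios scaling and relative to the median gene. Scrublet called 106 of 7471 cells doublets. No paired analysis was possible because each condition was 1 library, and for the same reason no replicate could be left out. Values from few UMIs, such as *Nlrc5* and *H2-Q6* without treatment, are limited by depth.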
